A study of Homo sapiens with 4 samples.

Results

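The 871 peaks described here were strong FOXK1 binding regions found in both culture conditions at the end of a single protein-coding gene. FOXK1 is a forkhead transcription factor, and the peaks came from chromatin immunoprecipitation and sequencing (ChIP-seq) of HK-2 cells, an immortalised human proximal tubular epithelial line. A control peak was taken when its height was 20 or more and a TGF-β1 peak of height 20 or more overlapped it by at least 1 bp. Its midpoint also had to lie within 1 kb of an annotated end of exactly 1 protein-coding gene, on chromosomes 1-22 and X. Height is the authors' signal for a peak, read as the number of stacked fragments at its highest point. These 871 were taken from 381673 control peaks, or 0.228%, and they lay at 858 of 19970 protein-coding genes, or 4.30%. The control group was untreated HK-2 cells, and the treated group was HK-2 cells given 10 ng/ml TGF-β1, a fibrosis-driving cytokine, for 24 h. An antibody to FOXK1 was used on chromatin cut with MNase and then sonicated. There was 1 FOXK1 library with 1 input per group, 4 libraries in total, without replicates. The design text also mentions a transfection of the cells, without naming what was transfected. With 1 library a group there was no test between conditions, and depth was unknown, so heights of both lists stand side by side and are not a measure of change.

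Forkhead factors share a winged-helix domain that reads a short AT-rich word in DNA, commonly written GTAAACA. FOXK1 and its relative FOXK2 are known as repressors that recruit the SIN3 complex, and they occupy many of the promoters that the insulin-regulated FOXO factors use at genes of autophagy, muscle atrophy and glucose use. Promoters of active genes in proliferating epithelial cells are mostly rich in CpG and also carry words for other factor families, among them SP/KLF, NF-Y, ETS and E-box factors. A peak at a gene's end is a place of occupancy and does not show that the gene is regulated.

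The promoters under the highest of these peaks are shown because the rule used position and height but no sequence. The 6 below belong to the highest members whose control peak overlapped a RefSeq promoter window, in order of control height, whatever words they hold. Each is the 250 bases before the RefSeq transcription start (GRCh38.p14), 5′ to 3′ on the gene's strand. Capitals mark the forkhead core GTAAACA, or its reverse complement, and the E-box CACGTG. H1-10 encodes a linker histone, HBP1 an HMG-box repressor of the cell cycle and EXOSC2 a subunit of the RNA exosome. KLHL24 encodes a substrate adaptor of a ubiquitin ligase, TBC1D15 a GTPase-activating protein for Rab7 and CTSF cathepsin F, a lysosomal protease.
H1-10, chr3:129316287-129316536, minus strand: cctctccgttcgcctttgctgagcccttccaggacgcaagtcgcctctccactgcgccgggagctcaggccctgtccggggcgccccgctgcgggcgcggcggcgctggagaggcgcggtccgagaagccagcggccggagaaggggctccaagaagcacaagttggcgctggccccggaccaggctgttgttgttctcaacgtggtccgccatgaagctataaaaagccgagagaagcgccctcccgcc
HBP1, chr7:107168753-107169002, plus strand: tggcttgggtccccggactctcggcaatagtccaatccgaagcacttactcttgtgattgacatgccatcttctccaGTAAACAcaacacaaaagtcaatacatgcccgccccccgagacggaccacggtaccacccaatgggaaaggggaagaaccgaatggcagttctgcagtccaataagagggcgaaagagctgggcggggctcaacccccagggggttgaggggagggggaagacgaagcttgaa
EXOSC2, chr9:130693510-130693759, plus strand: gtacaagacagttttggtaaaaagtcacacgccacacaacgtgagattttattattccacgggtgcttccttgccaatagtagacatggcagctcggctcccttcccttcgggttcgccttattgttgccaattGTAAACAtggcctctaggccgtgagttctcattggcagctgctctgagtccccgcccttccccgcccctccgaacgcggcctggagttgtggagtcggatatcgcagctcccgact
KLHL24, chr3:183635373-183635622, plus strand: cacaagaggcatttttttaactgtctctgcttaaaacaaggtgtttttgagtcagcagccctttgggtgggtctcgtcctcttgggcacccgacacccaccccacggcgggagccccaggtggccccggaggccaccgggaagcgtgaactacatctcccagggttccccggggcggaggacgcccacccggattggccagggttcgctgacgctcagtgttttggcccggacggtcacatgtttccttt
TBC1D15, chr12:71839509-71839758, plus strand: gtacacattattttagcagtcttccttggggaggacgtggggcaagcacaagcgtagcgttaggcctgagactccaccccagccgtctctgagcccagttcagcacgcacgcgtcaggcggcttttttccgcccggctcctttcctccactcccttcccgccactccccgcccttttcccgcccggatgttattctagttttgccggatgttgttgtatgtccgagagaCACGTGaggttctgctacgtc
CTSF, chr11:66568607-66568856, minus strand: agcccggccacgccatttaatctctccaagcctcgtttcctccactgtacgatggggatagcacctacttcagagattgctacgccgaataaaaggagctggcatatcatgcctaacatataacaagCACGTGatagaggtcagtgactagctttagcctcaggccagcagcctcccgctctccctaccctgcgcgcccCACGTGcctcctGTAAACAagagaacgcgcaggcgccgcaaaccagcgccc

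HBP1, EXOSC2 and CTSF, 3 of the 6, each held 1 forkhead core within these bases, and CTSF held 2 E-boxes beside it. TBC1D15 held 1 E-box and no core. H1-10 and KLHL24 held neither word, with control heights of 304 and 180. A missing word says only that these letters were not in the window. To show how the core sits in its surroundings, the 12 highest windows whose core had 10 bases on either side are given next, each on the strand that reads GTAAACA, with the core in capitals. In the order given, the control and TGF-β1 heights were 297 and 270 for HBP1, 181 and 131 for EXOSC2, 169 and 184 for CTSF, and 167 and 139 for TXNIP. They were 132 and 172 for FRAT2, 124 and 163 for FRAT1, 107 and 121 for KLHDC2, and 106 and 101 for DHX40. They were 97 and 70 for TNRC18, 96 and 83 for MARCHF8, 95 and 110 for YIPF4, and 92 and 83 for DUSP11.
HBP1, chr7:107168820-107168846, plus strand: atcttctccaGTAAACAcaacacaaaa
EXOSC2, chr9:130693634-130693660, plus strand: gttgccaattGTAAACAtggcctctag
CTSF, chr11:66568629-66568655, minus strand: cgtgcctcctGTAAACAagagaacgcg
TXNIP, chr1:145996687-145996713, minus strand: cgggctcctgGTAAACAaggaccgggc
FRAT2, chr10:97334741-97334767, plus strand: gggttgatttGTAAACAatgggtgacg
FRAT1, chr10:97319229-97319255, minus strand: gggttgatttGTAAACAatgggtgacg
KLHDC2, chr14:49768110-49768136, plus strand: cggccgcggcGTAAACAaggccgtgga
DHX40, chr17:59565567-59565593, plus strand: acgcgcggaaGTAAACAcctctacgtc
TNRC18, chr7:5423991-5424017, plus strand: tcacgcgcatGTAAACAccttggccca
MARCHF8, chr10:45594859-45594885, minus strand: ggcgtagggtGTAAACAggcgacgcgc
YIPF4, chr2:32277692-32277718, plus strand: gaggtaatagGTAAACAaaacgccagg
DUSP11, chr2:73780162-73780188, plus strand: ctcctgatctGTAAACAggactttggt

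FRAT1 and FRAT2 are paralogs that bind GSK3 in the Wnt pathway, and their stretches were equal at all 27 of 27 bases, so they are 1 sequence and not separate examples. TXNIP is an arrestin-like protein that restrains glucose uptake, KLHDC2 is a substrate receptor of a ubiquitin ligase, and DHX40 is a DEAH-box helicase. Outside the core the other stretches differed. Over all 81 cores in the members' windows, the base after the core was A in 33.3%, C in 28.4%, G in 25.9% and T in 12.3%. The base before it was C in 20.99% and T in 24.7%, where all promoter windows had 12.7% and 33.6%. All promoter windows held 637 cores with a base on either side. The base after those cores was A in 27.9%, C in 24.2%, G in 29.7% and T in 18.2%.

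The forkhead core was held by more of the windows under higher peaks. A window here is the 300 bases from 250 before to 50 after a RefSeq start, searched on both strands, and 613 of the members lay at a start with a window that the control peak overlapped. Of these, 80 held the core, or 13.1% (95% interval 10.49 to 16.0). The background was 629 of 22011 windows of protein-coding genes, or 2.86%, and 452 of 19855 windows without a control peak of height 20 or more, or 2.28%. All intervals on shares are exact binomial ones and cover counting error only.

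Within the members the share followed height in both lists. By control height the core was in 16 of 211 windows at heights of 20 to 29, or 7.58% (4.40 to 12.0). It was in 29 of 269 at 30 to 49, or 10.8% (7.34 to 15.1), and in 26 of 107 at 50 to 99, or 24.3% (16.5 to 33.5). At 100 or more it was in 9 of 26, or 34.6% (17.2 to 55.7). The intervals of 20 to 29 and 30 to 49 overlapped, as did those of 50 to 99 and 100 or more, and the interval of 50 to 99 lay above those of both lower classes. By the height of the overlapping TGF-β1 peak the 4 shares were 8.79%, 12.2%, 22.99% and 40.9%. Seen over all promoter windows, those with no control peak held the core in 2.58%, and those with a peak of height 3 to 9 and 10 to 19 in 2.12% and 1.73%. Windows under peaks of 20 to 29, 30 to 49, 50 to 99 and 100 or more, members and other peaks together, had 4.43%, 8.19%, 20.2% and 34.9%. The share was thus not higher under weak peaks than under none. The looser word TAAACA, which every core contains, was in 20.1% of member windows (17.0 to 23.5) against 9.55% of all windows, and by control height in 11.8%, 18.2%, 35.5% and 42.3%.

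**Figure D1:**
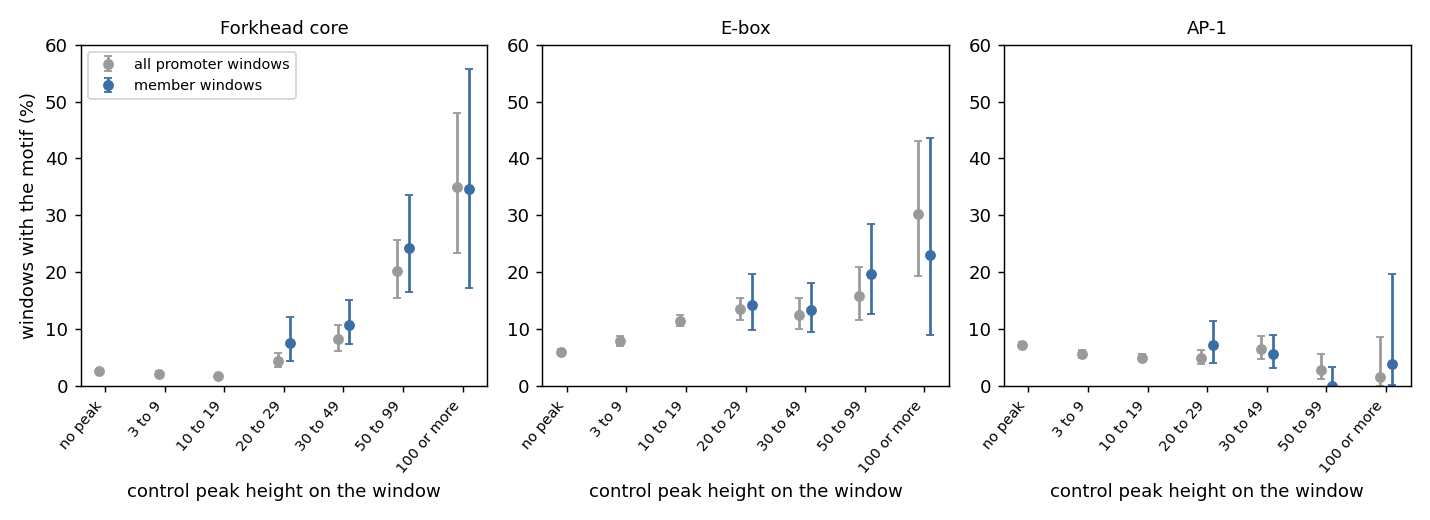
Share of promoter windows with the forkhead core, the E-box and the AP-1 word (y axis, percent) by the height of the control peak on the window (x axis). Blue points are member windows, grey points all protein-coding windows, and bars are exact binomial 95% intervals. The forkhead share of member windows goes from 7.58% at heights of 20 to 29 to 34.6% at 100 or more, while the AP-1 share stays under 10%.

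The same relation can be read from the heights of these 613 windows, which adds no separate evidence. The 80 members with a core had a median control height of 47.5 (quartiles 32 to 72) and a median TGF-β1 height of 39 (26 to 64.25). The 533 without it had medians of 33 (26 to 45) and 29 (23 to 38). The upper quartile of the second group lay below the median of the first in the control list, and the ranges overlapped. The median width was 1033 bp with a core and 1239 bp without. Base composition was close, with a median of 62.0% G and C in windows with the core and 64.0% in those without, against 62.3% in all windows, and its part in the pattern was not tested.

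To see whether another word behaved in the same way, all 8192 words of 7 letters were counted, with both strands merged, a step chosen after the motif shares were seen. Among the 1490 words in at least 5% of member windows, GTAAACA had the highest ratio of the share in member windows to that in windows without a control peak of height 20 or more, 5.73. The next was GTGTTTA with 3.22, in 40 member windows, followed by ACAACAC with 3.19, in 32. Read on the other strand GTGTTTA is TAAACAC, which extends the looser forkhead word. For the 133 member windows under peaks of height 50 or more, GTAAACA was again first, in 35 windows, or 26.3%, with a ratio of 11.6. The word CGTAAAC came second with 8.35 and overlaps the core by 6 letters.

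The place of the core in the peak differed between height classes. Of all 81 cores, 38 lay within 100 bp of the control midpoint, or 46.9% (35.7 to 58.3), at a median distance of 124 bp. Of all bases of the 613 member windows, with or without a core, 26.9% lay that close, at a median of 202 bp. This baseline is not matched to windows with a core, whose control midpoints lay nearer the start (median 181.5 bp against 226 bp without). At control heights of 20 to 29, 8 of 16 cores lay within 100 bp, and at 30 to 49 it was 17 of 30, with medians of 115 and 71 bp. At 50 to 99 it was 9 of 26 with a median of 232.5 bp, and at 100 or more it was 4 of 9 with 124 bp. The 202 bp of all bases was taken over all height classes together and lay below the 232.5 bp. The nearness to the midpoint was thus not seen in the median of the class of 50 to 99, where the core was more frequent than in the lower classes. All 81 cores lay inside the control peak and 80 also inside the TGF-β1 peak. The exception was CRY1, a repressor of the circadian clock with heights of 57 and 35, which was looked up after the count was seen. Windows were taken only where the control peak overlapped them, so most words lay inside it. It held 104 of 105 E-boxes, 420 of 426 CCAAT boxes and 988 of 1039 GC boxes, and 96, 389 and 877 of them lay inside both peaks. From the TGF-β1 midpoint the median distance of the cores was 190 bp. GC boxes, GGGCGG, had 25.02% of 1039 matches within 100 bp of the control midpoint (22.4 to 27.8), and CCAAT boxes 26.1% of 426 (21.9 to 30.5). The E-box CACGTG had 38.1% of 105 (28.8 to 48.1). Cores lay on the gene's strand 44 times and on the other 37 times, and their median place was at -95 bp from the start. Each of 79 members had 1 core and 1 had 2.

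**Figure D2:**
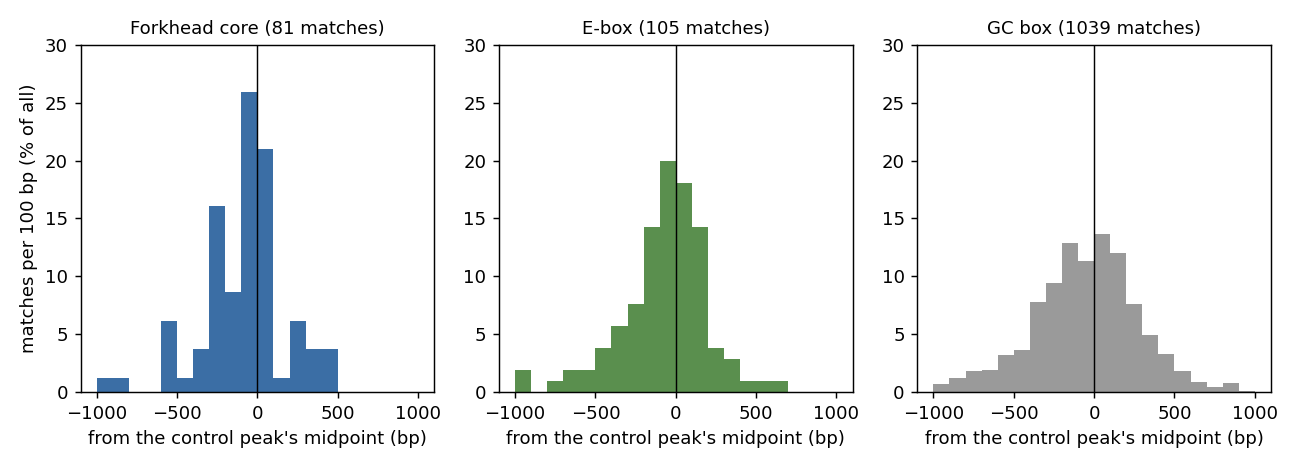
Place of the forkhead core, the E-box and the GC box in member windows, as distance from the midpoint of the control peak along the gene's direction (x axis, bp), in percent of all matches per 100 bp (y axis). Of the 81 cores, 46.9% lie within 100 bp of the midpoint, against 38.1% of the 105 E-boxes and 25.02% of the 1039 GC boxes.

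The words of other factor families were counted in the same windows. GC boxes, read by SP and KLF factors, were in 72.9% of member windows (69.2 to 76.4), where 56.3% of all windows held one. The E-box CACGTG, read by MYC, USF and TFE factors, was in 15.2% (12.4 to 18.3) against 8.32%. The ETS word CCGGAAG was in 19.7% (16.7 to 23.1) against 12.7%, and the NRF1 word GCGCATGC in 7.67% (5.69 to 10.1) against 3.71%. The CREB and ATF word TGACGTCA was in 4.73% (3.19 to 6.72) against 2.25%, and the shorter TGACGT, which every such site contains, in 14.8% (12.1 to 17.9) against 8.90%. CCAAT, the NF-Y word, was in 39.6% (35.7 to 43.6) against 34.7%. The HIF word TACGTG was in 4.57% (3.06 to 6.53) against 3.13%, and the E2F word TTTCCCGC in 2.77% (1.62 to 4.40) against 1.99%. The AP-1 word TGANTCA, read by JUN and FOS proteins that TGF-β can induce, was in 5.06% (3.46 to 7.10) against 6.16%. The SMAD palindrome GTCTAGAC was in 0 of 613 member windows, which allows up to 0.600%, against 0.218% of all windows. Windows under weaker control peaks, of height 10 to 19, held the GC box in 71.4%, CCAAT in 38.1% and the ETS word in 21.2%. They held TGACGT in 12.9%, TGACGTCA in 3.54%, the HIF word in 3.62% and the E2F word in 3.10%. These shares lay within the members' intervals, so such excesses over all windows were not particular to members. The NRF1 word had 5.66% there. With no control peak the GC box was in 43.8% and the ETS word in 6.42%.

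Member windows were also richer in CpG, with a median ratio of observed to expected CpG of 0.873 against 0.737, and its part in these shares was not tested. Neither the GC box (72.5%, 71.0%, 78.5% and 73.1% from the lowest to the highest class of control height) nor the ETS word (18.5%, 22.7%, 15.9% and 15.4%) followed height as the forkhead core did. Over all promoter windows the ETS word was in 25.4% at 100 or more (15.3 to 37.9). In member windows the full CREB and ATF word was in 2.84%, 4.83%, 8.41% and 3.85%, the last from 1 of 26 windows. CCAAT was in 42.7%, 36.8%, 37.4% and 53.8%, the last with an interval of 33.4 to 73.4. The E-box shares were 14.2%, 13.4%, 19.6% and 23.1%, with the last from 6 of 26 windows (8.97 to 43.6). Over all promoter windows the E-box was in 5.97% with no control peak, and in 7.87% and 11.5% at heights of 3 to 9 and 10 to 19. At 20 to 29, 30 to 49, 50 to 99 and 100 or more it was in 13.4%, 12.5%, 15.8% and 30.2%. The interval of the highest class (19.2 to 43.0) lay above that of 20 to 29 (11.6 to 15.5), so a higher share under the highest peaks was not particular to the forkhead core. The highest members with an E-box were TBC1D15, CTSF, ABCA1, the cholesterol exporter, and DHX40. The highest with the full CREB and ATF word were FRAT1, with heights of 124 and 163, SLC25A36, a mitochondrial nucleotide carrier with 89 and 55, and TAF4B, a TFIID subunit with 73 and 93. YTHDC1, a nuclear reader of methylated adenosine in RNA, followed with 68 and 66. The highest with the AP-1 word were KLHL24, with 180 and 143, and CXCL8, the neutrophil chemokine interleukin 8, with 48 and 52.

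Peaks at the starts and ends of genes were told apart by strand, which was known for 734 of the 871 members. Of these, 687 lay at the transcription start, or 93.6% (91.6 to 95.3), and 47 at the transcription end. At the start the median midpoint lay 8 bp downstream (quartiles -211.5 and 298.5 bp, negative values being upstream), with 334 midpoints upstream and 353 downstream. Within 250 bp of the start lay 351, or 51.1%, and within 500 bp 521, or 75.8%. The starts were thus at the centre of the distribution, while the 47 at transcription ends were spread over the window, 24 of them within 500 bp of the end. Counted per start member, the gene had a median length of 35837 bp, against 24190 bp for all 19970 protein-coding genes. Start members could come only from the 15811 genes with a promoter window, so the sets are unlike. An end of a non-coding gene lay within 1 kb of the midpoint of 196 start members, or 28.5%, and of 8 end members, or 17.0%.

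**Figure D3:**
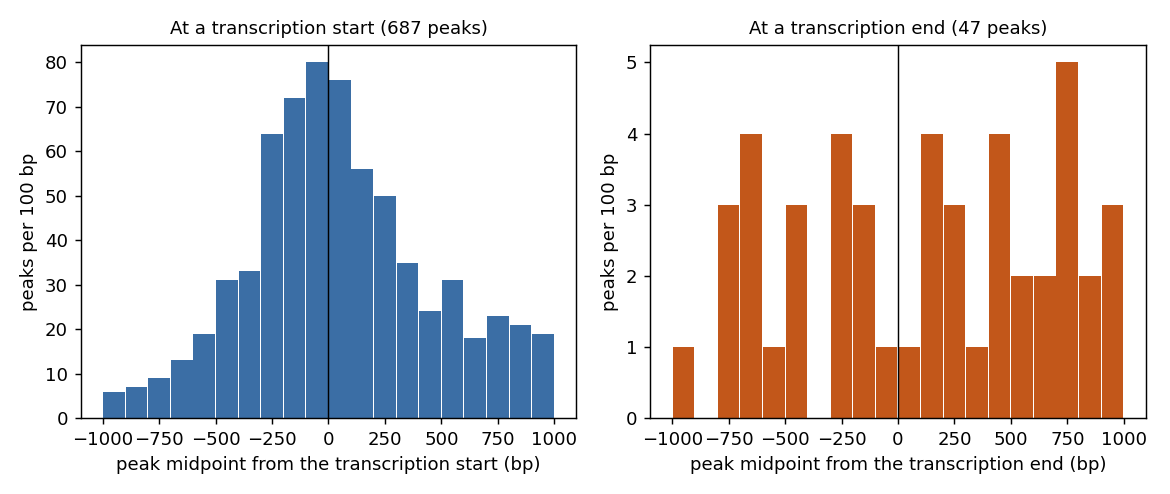
Number of members per 100 bp (y axis) by the distance of the control midpoint from the transcription start (left) or the transcription end (right), in bp, with positive values downstream (x axis). Start members peak around 0, with 521 of 687 within 500 bp, and the 47 end members show no such centre.

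Among members with a known strand, the highest at a transcription end was that of CEBPB, a single-exon gene for a bZIP factor, with heights of 228 and 212. Its midpoint lay at -244 bp from the gene's downstream end, within the gene, and the peak spanned chr20:50191628-50193265 (GRCh38). GOT1, the cytosolic aspartate aminotransferase, had 171 and 192, and its midpoint lay 784 bp past the end of the gene. The GOT1 peak was therefore not at that gene's start. LOC124904583 had 134 and 125, with a non-coding gene end also nearby. TNFRSF8, the CD30 receptor, had 92 and 77, SLC22A5, the carnitine transporter, 78 and 33, and SYT1, a synaptic vesicle calcium sensor, 73 and 71. As a group the end members had a median control height of 33 (quartiles 24 to 43.5) and a median width of 843 bp. The start members had 35 (27 to 47) and 1164 bp.

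Heights varied over a wide range among the members. The control heights had a median of 34 (quartiles 27 to 48) and ran from 20 to 414, and those of the overlapping TGF-β1 peaks had a median of 30 (24 to 42) and ran from 20 to 455. Heights under 30 made up 35.1% of members in the control list, and 41 members, or 4.71%, reached 100 or more. Of these 41, 31 also reached 100 in the TGF-β1 list, where 34 did in all. Across the 871 members Spearman's rho of both heights was 0.76, which describes members chosen for being high in both lists. The rho of control height and width was 0.12.

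The highest member was FBXO32, which encodes the atrophy-related F-box protein atrogin-1, with a control height of 414 and a TGF-β1 height of 455. H1-10 had 304 and 295, and HBP1 had 297 and 270. NDUFAF6, an assembly factor of respiratory complex I, had 282 and 331. ETV5, an ETS factor downstream of ERK, had 235 and 161. WEE1, the kinase that holds CDK1 inactive, had 191 and 193, and EXOSC2 had 181 and 131. KLHL24 had 180 and 143, and HMGB2, a chromatin protein, 177 and 160. The first 10 of the control list also held CEBPB, and CTSF with 184 and WIPI1, a phosphoinositide-binding autophagy protein, with 180 were among the first 10 of the TGF-β1 list.

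**Figure D4:**
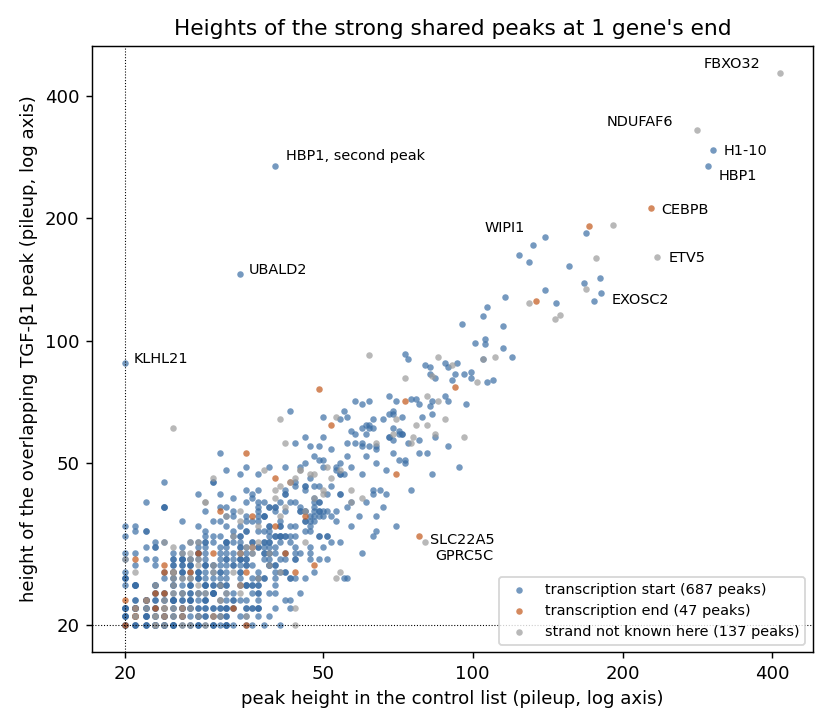
Height of each of the 871 members in the control list (x axis) and of the overlapping TGF-β1 peak (y axis), both as pileup on log axes, coloured by gene end. Dotted lines mark the minimum of 20. Most members run along 1 band from 20 to FBXO32 at 414 and 455, and HBP1's second peak, UBALD2 and KLHL21 lie above it.

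Of the 5 members with the highest ratio of TGF-β1 to control height, all lay under TGF-β1 peaks that also overlapped another control peak. The median ratio of TGF-β1 to control height was 0.89, and it ran from 0.40 to 6.75. The highest ratio belonged to a second HBP1 peak, with 40 and 270, whose TGF-β1 peak of 3316 bp also covered the main HBP1 control peak of height 297. KLHL21, a mitotic ubiquitin ligase adaptor, had 20 and 88, and its TGF-β1 peak of 3608 bp also overlapped a control peak of height 105. UBALD2 had 34 and 146 beside a control peak of height 152 under the same TGF-β1 peak, and CCDC50, a ubiquitin-binding protein, had 25 and 61 beside one of height 68. The fifth, at LOC105369787, had 24 and 45 beside one of height 30. A higher control peak thus lay under the same TGF-β1 peak in each of the 5 cases. In all, 6 TGF-β1 peaks overlapped 2 members each, so the 871 members, each paired with 1 TGF-β1 peak, met 865 distinct ones. A second TGF-β1 peak also overlapped 11 members.

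For the 5 lowest ratios each TGF-β1 peak overlapped 1 control peak. GPRC5C, an orphan receptor, had 80 and 32, SLC22A5 78 and 33, and CDCA7L, a MYC-interacting protein, 55 and 26. BCL2L11, which encodes the cell death protein BIM and whose window held a forkhead core, had 56 and 26, and DOK6, a signalling adaptor, 44 and 20. The midpoints of both peaks lay at a median distance of 172 bp (quartiles 63 to 338.5), and 765 of the 871 pairs were under 500 bp apart. Whether any of these ratios differs between conditions could not be tested.

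Peaks just inside and just outside the minimum had like heights. Just inside lay KLHL21 (20 and 88), KANSL3 (20 and 35), YY1 (20 and 33), SYNC (20 and 30) and MT1F (20 and 29). Just outside lay, among others, DDAH1 (19 and 35), CBLN3 and PAICS (each 19 and 29) and CTDSPL2 (19 and 28). A minimum of 19 would have added 110 peaks with a height of 19 in at least 1 list. Of 1503 control peaks of height 20 or more at 1 gene's end, the 871 members were 58.0%. Of the other 632, a TGF-β1 peak of height 10 to 19 overlapped 581 and one under 10 overlapped 40, while 11 had no overlapping TGF-β1 peak.

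The members were grouped by gene lists of known roles, beside the 4.30% of all protein-coding genes that had a member. Of 37 genes of stress, atrophy and quiescence that FOXO factors are known to use, 15 had one, or 40.5%, the highest share of the 17 lists. All 17 lists were drawn up with earlier results of these data known, so none of their counts is independent evidence. Besides FBXO32, KLHL24 and TXNIP the list of FOXO-type targets held PDK4, a kinase that shuts pyruvate out of the mitochondrion, with 115 and 96. It also held RBL2, the pocket protein p130, with 62 and 61, BCL6, a repressor, with 60 and 47, BCL2L11, and CCNG2, an atypical cyclin of quiescent cells, with 53 and 48. Of its 11 members with a window, 3 held the forkhead core, too few to set against the 13.1% of all member windows.

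Transcription factor genes were next. Of 46 genes of ETS, KLF, EGR, bHLH and related factors 10 had a member, or 21.7%. HES1, a target of Notch, had 84 and 58, and MNT, a repressor of the MYC network, 79 and 65. MAX, the partner of MYC, had 56 and 52, MXD3 47 and 35, MXD1 42 and 33, and MYC itself 41 and 37. ID1, an inhibitor of bHLH factors, had 24 and 39. Of 35 bZIP genes 6 had a member, or 17.1%, with MAF at 63 and 33, JUN at 36 and 41, and MAFF at 34 and 26 below CEBPB. Of 34 genes of forkhead factors and FOXK partners 3 had one, or 8.82%. These were SAP30, a SIN3 complex subunit with 61 and 40, OGT, the O-GlcNAc transferase with 29 and 30, and YY1. No forkhead factor gene was among them, and FOXO4, with 19 and 22 at its start, lay just under the minimum.

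Chromatin, cell cycle and autophagy genes also had members. Of 32 histone and chromatin genes 7 had one, or 21.9%, among them EZH1, a PRC2 methyltransferase whose window held the core, with 110 and 80. H3-3A, a replication-independent histone, had 69 and 57, and BAHCC1, a chromatin reader, had 64 and 50. Of 53 cell cycle genes 8 had one, or 15.1%, with CDK6 at 64 and 34 and RBL2 below WEE1, and 4 more lay only at peaks near the ends of several genes. Of 48 autophagy and lysosome genes 7 had one, or 14.6%. Their median control height was 84, beside 34 over all members, and the medians of the other lists with a member ran from 20 to 89. Height had chosen the members, so these medians are a description. The 7 included ATG2A, a lipid transfer protein, with 94 and 49, BNIP3L, a mitophagy receptor, with 88 and 64, and RB1CC1, a scaffold of the ULK1 complex, with 84 and 59. None of the 4 members of this list with a window held the core, too few to set against the 13.1% of all member windows. CTSF, a lysosomal protease that the list does not hold, had a core.

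Genes of signalling, metabolic, stress and ubiquitin pathways were a small part of the 871 members, as each list was short. The share of each list in this paragraph was above the 4.30% of all protein-coding genes, but 13.8% of all 552 listed genes had a member. The glycolysis share rests on 2 genes and is too small a count to set against either. Of 32 genes of TGF-β signalling and response 5 had one, or 15.6%. Among them were PMEPA1, an inhibitor of the pathway, with 54 and 32, SMAD2 with 53 and 49, the matricellular gene CCN1 with 43 and 45, and SMAD4 with 25 and 27. Of 27 glycolysis and lactate genes 2 had one, or 7.41%, and both encode kinases of pyruvate dehydrogenase, PDK2 with 43 and 40 and PDK1 with 35 and 22. No enzyme of the glycolytic chain itself was among the members. Of 28 hypoxia and mTORC1 genes 4 had one, or 14.3%, with DDIT4 at 40 and 25. Of 29 integrated stress response genes 5 had one, or 17.2%, with PPP1R15A, a phosphatase subunit that restores translation, at 47 and 55 below GOT1. Of 32 ubiquitin ligase and proteasome genes 5 had one, or 15.6%, with the deubiquitinase USP2 at 66 and 64 below FBXO32.

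The remaining lists had at most 2 genes with a member. Of 27 genes of the cytosolic ribosome and translation 2 had a member, RPS14 with 37 and 31 and RPL27 with 33 and 22. Of 26 genes of mitochondrial respiration and ribosome 1 had one, TFAM, the mitochondrial transcription factor, with 20 and 29. Of 33 matrix, junction and epithelial to mesenchymal genes 1 had one, the keratin gene KRT8 with 89 and 71. Of 24 proximal tubule genes 1 had one, SLC13A3 with 27 and 26, and among the 23 genes marking other renal or blood cell types 0 did. Binding is not expression, so these counts do not check the cell type. Over all lists 76 of 552 genes had a member, or 13.8%. Another 21 lay only at peaks near the ends of several genes, which the rule leaves out. Of these, 3 were in the cytosolic ribosome list and 3 in the mitochondrial list. The matrix list and the list of other cell types each had 1. A low share here therefore does not mean that a list lacks strong shared peaks at gene ends.

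**Figure D5:**
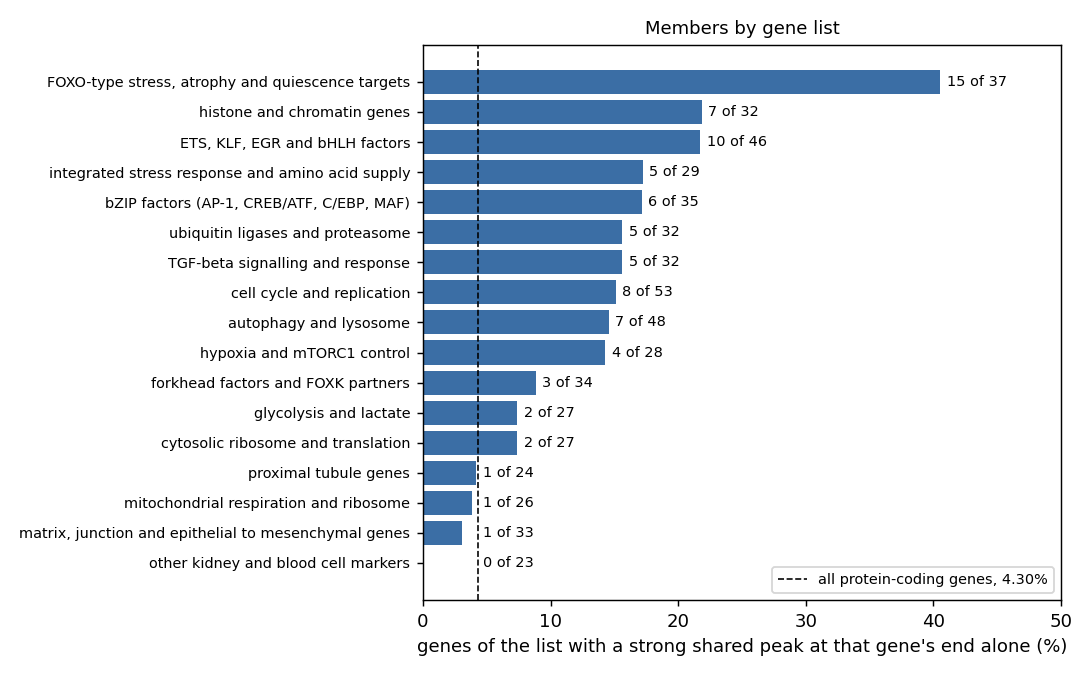
Share of each of the 17 gene lists with a member (x axis, percent), with the number of genes beside each bar and the share over all protein-coding genes, 4.30%, as a dashed line. The list of FOXO-type targets stands at 15 of 37, and the lists of matrix, mitochondrial, proximal tubule and other cell marker genes lie under the line. Genes found only at peaks near the ends of several genes are not counted.

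The members were wider and more often high than strong shared peaks inside or between genes, but not than those near the ends of several genes. Strong shared peaks numbered 4189 in all, which was 55.1% of the 7607 control peaks of height 20 or more, and members were 20.8% of the 4189. The median width was 1135 bp for members, 929.5 bp for the 1748 peaks inside genes, 892 bp for the 1363 between genes and 1325 bp for the 207 near the ends of several genes. A control height of 50 or more was reached by 22.96% of members (20.2 to 25.9), by 15.7% of peaks inside genes (14.0 to 17.5) and by 15.4% of those between genes (13.5 to 17.4). Near the ends of several genes it was 25.6% (19.8 to 32.1). Windows under those last peaks held the forkhead core in 30 of 363 cases, or 8.26% (5.65 to 11.6), and the ETS word in 29.5% (24.8 to 34.5). These windows can come in pairs under 1 peak, and the differences were not tested.

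Members with more than 1 peak at a gene were few. A pair of members lay at each of 13 genes, among them JAK1, a cytokine receptor kinase, with control heights of 65 and 45, and MDM2, the ligase of p53, with 27 and 25. CCN1 had members at its lower-coordinate end, with 26 and 26, and at its higher-coordinate end, with 43 and 45. BBX, an HMG-box factor, had 32 and 22 at its start and 70 and 47 near its end. The widest member was that of JAG1, a Notch ligand, with 4801 bp and heights of 23 and 25, followed by PPM1B, a protein phosphatase, with 4289 bp and GADD45B, a stress response protein, with 3781 bp.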

How the data were processed

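FOXK1 ChIP-seq of HK-2 cells gave 1 peak list per condition. Per the submitters' processing notes, bcl2fastq 2.17, MACS2 2.1.1.20160309 and the hg38 genome were used. The aligner, filters and threshold are not given in the sources used here. The deposited signal of each peak is a whole number of at least 3, read as pileup height, and the deposited lists are named as 1 library against its own input, without pooling. Depth is unknown, so heights serve only to describe peaks within a list.

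Starts were read as counting from 0. Genes, strands and promoter windows came from RefSeq (GRCh38.p14); 15811 of 19970 protein-coding genes had a window, and genes without one have no strand here. The 13 motifs were searched on both strands. Python 3.11.15, numpy 2.4.6, pandas 2.3.3, scipy 1.17.1 and matplotlib 3.10.9 were used, and the overlap, gene-end and motif counts were tested on simulated data. Members, lists and motifs were chosen with earlier results of these data known. Genes named are the highest in each list, at transcription ends, per motif and per gene list, the widest, the paired, those nearest the minimum and those of extreme ratio; other list members were chosen after their values were seen. A few genes that the rule names are not reported here. Alternatives were other minimums, windows, overlaps, the other base list and motif forms. A p-value could not be had with 1 library a group.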

Additional observations from a re-analysis of the deposited data

Results flagged for a closer look

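Chromosome Y and the unplaced contigs, which no comparison above used, also held strong shared peaks. By the same minimum of 20 in both lists, 20 control peaks there were overlapped by a TGF-β1 peak, and their median control height was 63. Of the 20, 1 lay on chromosome Y. They are given because the rule left these sequences out. Whether 20 is many for their length was not tested.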

How the results depend on the processing

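The number of members and the forkhead share moved with the height minimum. With a minimum of 15 there were 1657 members and 8.49% of their windows held the core, and with 30 there were 398 and 18.1%. The looser forkhead word went to 14.7% and 28.6%, the full CREB and ATF word to 6.88% at a minimum of 30, and the listed genes with a member from 76 to 49. The looser word in place of the core gave 20.1%. A window of 500 bp put 95.6% of members at a start. Larger windows, overlap of at least 50% of both peaks, starts counted from 1 and the TGF-β1 list as the base left the results computed under them within 1.5 times or within their interval. The overlap of peak and window was already part of the reported share. Taking 1 window per gene, a choice made after seeing the data, gave 2.68% for the core over all windows against 2.86%. No paired analysis was possible because each group had 1 library. Unknown depth limits every comparison of heights between the lists.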

Other observations

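Members were spread unevenly over the chromosomes relative to their protein-coding genes. Chromosome 20 had 46 members for 537 genes, or 8.57 per 100 genes, and chromosome 3 had 78 for 1066, or 7.32. Chromosome 21 had 2 for 239, or 0.837, and chromosome 11 had 26 for 1301. Copy number of these chromosomes in the cultures was not measured here, and its part was not tested.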
